A study of Mus musculus with 15 samples.

Results

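A set of 10 genes of matrix breakdown was followed across 15 arrays of embryonic mouse chondrocytes treated with signalling inhibitors. They are 5 matrix metalloproteinases (Mmp2, Mmp3, Mmp9, Mmp13 and Mmp14), the 4 tissue inhibitors of metalloproteinases (Timp1, Timp2, Timp3 and Timp4) and Reck. Members were taken by symbol, and the platform annotation gives them 23 of the 45101 probe sets on the array, so that the members are 10 of 18194 genes named by a single-symbol probe set. Primary monolayer chondrocytes came from limb cartilage of CD1 mouse embryos at day 15.5 and were treated for 24 h with LY294002, UO126, SB202190 or trichostatin A (TSA), or with the vehicle DMSO. The 3 kinase inhibitors were used at 10 µM, and the concentration of TSA, whose unit could not be read from the labels, is not given here. LY294002 inhibits PI3K, UO126 inhibits the kinases MEK1 and MEK2, and TSA inhibits histone deacetylases. SB202190 is listed beside UO126 as a MEK/ERK pathway inhibitor in the series' design text, whereas it is generally known as an inhibitor of p38 MAP kinases. Each group had 3 arrays (LY294002, UO126, SB202190, TSA and DMSO), described as biological replicates, all with DMSO in the medium, and the 4 comparisons with vehicle share the same 3 DMSO arrays.

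Matrix metalloproteinases are zinc-dependent proteases that are made as inactive proenzymes and cleave collagens, proteoglycans and other matrix proteins. The TIMPs bind their active sites, and RECK is a membrane-anchored glycoprotein that restrains several of them. In the growth plate, MMP13, MMP9 and MMP14 are known for their part in the removal of cartilage matrix before it is replaced by bone.

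Values are MAS5 signals, the Affymetrix summary of a probe set, scaled to a 2% trimmed mean of 150 on every array. A probe set was tested where its mean signal reached 50 in at least 1 group, which 21765 probe sets did, and each gene is represented by its tested probe set of highest mean log2 signal. Changes are log2 differences of inhibitor minus DMSO from 1 limma model over all 15 arrays, with two-sided p-values adjusted by the Benjamini-Hochberg method over all probe sets tested, and a change was called at an adjusted p under 0.05. In all, 19 of the 23 member probe sets and 9 of the 10 member genes were tested. Timp4 was the member gene not tested. Arrays within a group correlated at 0.967 to 0.981. All 10 chondrocyte markers were tested, and Col2a1, the major collagen of cartilage, had a signal between 3903 and 7232 on every array. In limma no chondrocyte marker was called against DMSO with LY294002, UO126 or SB202190, where 2, 5 and 2 of them, in that order, had an unadjusted p under 0.05. With TSA, 9 of the 10 were lower (Col2a1 was not called), where 28.4% of all tested genes were lower. The summed signal of the 10 markers was 11230 to 12880 on TSA arrays, against 22300 to 34900 on DMSO arrays. The part of this in the members' changes was not tested. In RNA from a whole culture, fewer cells of a type and less RNA per cell cannot be told apart.

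The members differ in the sequence just upstream of their start. Promoter windows of 250 bases before to 50 after the start were found for 8 of the 10 members in RefSeq (build GRCm38.p6), and Mmp2 and Mmp9 were not among them. A set of 5 short motifs was searched on both strands: AP-1 as TGANTCA, RUNX as TGTGGT, ETS as AGGAAG, SP1 as GGGCGG and the TATA box as TATAAA. No pair of these motifs contains the other. The windows of Mmp13 and Mmp14, the members with the largest decreases under TSA, of Timp3, which moved the other way, and of Reck, which was higher with LY294002 and SB202190, are shown with every match in capitals. They lie on the plus strand at chr9:7272264-7272563, chr14:54431348-54431647, chr10:86300162-86300461 and chr4:43875280-43875579.
Mmp13: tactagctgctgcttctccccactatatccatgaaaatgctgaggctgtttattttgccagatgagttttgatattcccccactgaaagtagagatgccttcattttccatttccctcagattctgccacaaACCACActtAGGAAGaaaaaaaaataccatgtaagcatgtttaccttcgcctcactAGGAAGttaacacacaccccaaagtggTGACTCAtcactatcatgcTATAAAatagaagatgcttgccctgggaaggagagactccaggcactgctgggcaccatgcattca
Mmp14: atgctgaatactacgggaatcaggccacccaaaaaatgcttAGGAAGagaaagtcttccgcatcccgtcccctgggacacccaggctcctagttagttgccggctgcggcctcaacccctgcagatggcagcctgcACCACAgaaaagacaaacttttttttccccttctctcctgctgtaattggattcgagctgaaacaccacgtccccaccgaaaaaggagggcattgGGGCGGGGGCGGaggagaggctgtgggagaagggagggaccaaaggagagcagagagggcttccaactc
Timp3: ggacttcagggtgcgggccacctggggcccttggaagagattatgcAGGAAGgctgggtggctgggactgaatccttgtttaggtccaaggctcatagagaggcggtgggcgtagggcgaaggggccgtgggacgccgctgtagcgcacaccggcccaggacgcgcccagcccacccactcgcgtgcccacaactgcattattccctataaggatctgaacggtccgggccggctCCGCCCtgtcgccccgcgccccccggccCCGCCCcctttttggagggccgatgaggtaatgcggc
Reck: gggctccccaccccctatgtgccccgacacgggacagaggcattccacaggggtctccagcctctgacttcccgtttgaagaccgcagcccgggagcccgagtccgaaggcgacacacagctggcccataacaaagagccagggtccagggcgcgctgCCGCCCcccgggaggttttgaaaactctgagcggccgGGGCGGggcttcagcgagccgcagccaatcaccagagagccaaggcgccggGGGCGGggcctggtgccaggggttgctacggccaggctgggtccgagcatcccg
The Mmp13 window held an AP-1 match at -35 to -29, a RUNX match at -118 to -113, 2 ETS matches and a TATA box at -16 to -11, counted from the start. Mmp3, also on chromosome 9, was the other member with an AP-1 match (-46 to -40) and a TATA box. Mmp14 held a RUNX match at -114 to -109, 1 ETS match and 2 SP1 matches, the last 2 next to each other, with neither an AP-1 match nor a TATA box. Timp3 held 1 ETS and 2 SP1 matches and Reck 3 SP1 matches. Among all 32851 windows of this length, AP-1 letters occurred in 7.81%, RUNX in 16.8%, ETS in 35.4%, SP1 in 35.7% and the TATA box in 13.6%. Such matches describe letters and are not evidence of a factor's binding in these cells.

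TSA gave the widest change among the members. Of the 9 tested member genes 6 were called, and in 58.9% of the 11751 tested genes a call was made in this comparison, so that the members' share of 66.7% was near the background. Of these, 5 were lower (Mmp2, Mmp3, Mmp13, Mmp14 and Timp2), where 28.4% of all genes were, and 1 was higher (Timp3), where 30.6% of all genes were. The median log2 change was -0.50 over the 9 member genes and 0.0013 over all tested genes. Of the 19 tested member probe sets, 16 did not overlap between TSA and DMSO, against 59.1% of all probe sets.

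Mmp13, the collagenase of hypertrophic cartilage, had signals of 412, 420.4 and 1140.1 on the TSA arrays, against 2701, 3069.6 and 3500.1 on the DMSO arrays. All TSA arrays lay below all DMSO arrays, and TSA replicate 3 lay apart from the other TSA arrays. The change was -2.40 ± 0.27 (SE, n = 3 each) on the log2 scale, a 5.28-fold lower level, with a limma adjusted p of 1.98e-06. Without each array in turn the change ranged from -2.88 to -2.15. TSA replicate 3 also had the highest Mmp14 signal of its group and the highest signals of Ibsp (1696) and Col10a1 (916), a pair of genes of hypertrophic chondrocytes. Alpl and Ihh, the other hypertrophic markers tested, were highest on TSA replicate 2 (161.5 and 48.3, against 121.8 and 41.9 on replicate 3). The part of these differences in the Mmp13 values was not tested. The summed signal of the 4 hypertrophic markers was 938 to 2775 on TSA arrays, against 2370 to 3146 on DMSO arrays, with 3 of the 4 called lower and Col10a1 not called. Ibsp was the largest part of the DMSO sums (1855, 1928 and 1574).

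Mmp14, the membrane-anchored metalloproteinase that activates the MMP2 proenzyme, had the largest decrease. Its probe set 1448383_at read 159.9, 151 and 247 on TSA arrays, against 1087, 1256 and 1578 on DMSO arrays. The groups were far apart, and the change was -2.83 ± 0.21 (SE, n = 3 each), or 7.12-fold lower (adjusted p 2.01e-08, limma). A second probe set, 1416572_at, changed by -3.41 ± 0.17 and the third, 1440920_at, by -2.66 ± 0.22, and both were called. Mmp2, the gelatinase that MMP14 activates, had signals of 582, 659 and 673 with TSA, against 1447, 1629 and 1589.5 with DMSO. For Mmp2 the TSA arrays lay close together and below every DMSO array. The change of Mmp2 was -1.29 ± 0.086 (2.44-fold lower, limma adjusted p 8.37e-09), and -1.20 ± 0.11 on its other probe set.

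Mmp3, or stromelysin-1, lay near the detection range of the array. Its mean reached 50 in the DMSO group alone (61.9, against 26.1 to 45.5 in the other groups), so the group where it was highest brought it into the test. Each of its decreases against DMSO, and each count that includes it, carries this limit. Mmp3 read 35, 19 and 24.4 on TSA arrays, against 84.6, 54.2 and 47 on DMSO arrays. No array overlapped, and the change of -1.24 ± 0.34 was called (limma adjusted p 0.0053), but with signals under 50 set to 50 it was -0.29 and no longer called (adjusted p 0.121). Mmp9, the gelatinase of osteoclasts and other marrow-derived cells, read 43.5, 43.7 and 36.2 with TSA and 57, 64.3 and 47.6 with DMSO. Its change of -0.45 ± 0.20 missed the threshold (limma adjusted p 0.065, 95% interval -0.86 to -0.03) and was called without DMSO replicate 3 (adjusted p 0.042). The mean of Mmp9 reached 50 with DMSO (56.3) and LY294002 (50.4) alone, against 27.6 to 42.4 in the other groups. The groups where Mmp9 was highest thus brought it into the test. Each of its differences from them, and each count that includes it, carries this limit.

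**Figure D1:**
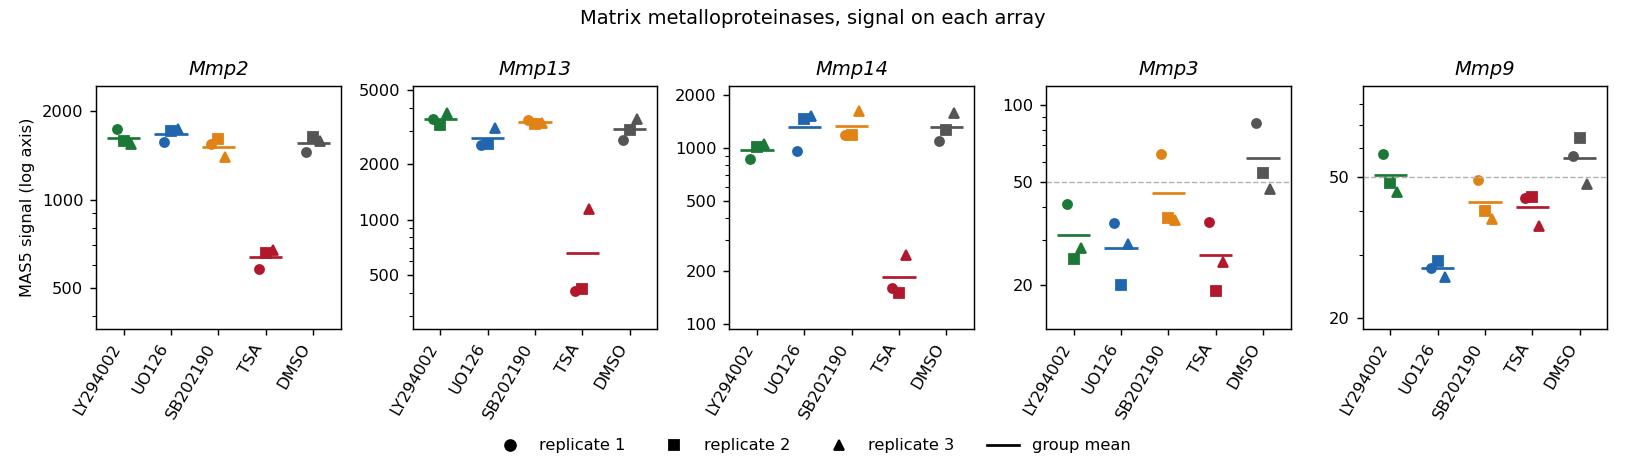
MAS5 signal (log axis) of the representative probe set of each metalloproteinase on the 15 arrays, with symbols for the replicate number, a bar for the group mean and a dashed line at a signal of 50. The TSA arrays of Mmp2, Mmp13 and Mmp14 lie below all others, whereas Mmp3 and Mmp9 stay below 85 on every array.

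Timp3 moved in the opposite direction. This inhibitor, which binds to the matrix and also inhibits ADAM and ADAMTS proteases, had signals of 4152, 4557 and 3593 on TSA arrays, against 1847, 2513 and 2941 on DMSO arrays. Every TSA array was above every DMSO array, and the change was 0.77 ± 0.15 (1.71-fold higher, limma adjusted p 0.00051). The other 3 probe sets of Timp3 gave 0.87, 0.89 and 0.99 and were called as well. Timp2, which also takes part in the activation of proMMP2 by MMP14, was lower. Its representative probe set read 2210.5, 2514 and 2385 with TSA and 2786, 3465 and 3877 with DMSO, without overlap, for a change of -0.50 ± 0.11 (limma adjusted p 0.0013).

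The 5 tested probe sets of Timp2 did not give the same size of change. They ranged from -0.24 (1454677_at, adjusted p 0.176) to -1.16 (1420924_at, adjusted p 0.00012), and 4 of the 5 were called. The one that was not called passed the threshold when DMSO replicate 1 was left out (adjusted p 0.0212). Timp1 was not called, with 2246, 2393 and 2649 on TSA arrays, against 2322, 3125 and 3869 on DMSO arrays, a change of -0.33 (95% interval -0.70 to 0.04, limma adjusted p 0.125). This change of Timp1 was called with quantile normalization (adjusted p 0.0439) or without DMSO replicate 1 (0.0143). Reck had signals of 695, 795 and 831 with TSA and 824, 863 and 724 with DMSO, and its change of -0.06 had an interval of -0.23 to 0.12. In these 2 genes the TSA and DMSO arrays overlapped.

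**Figure D2:**
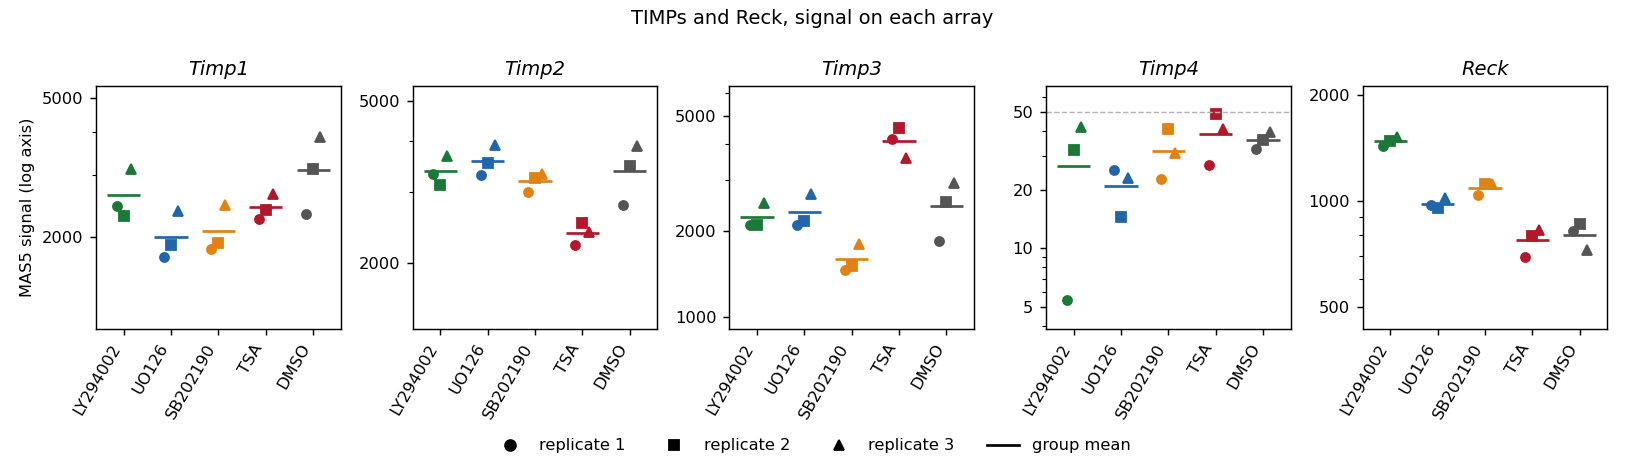
MAS5 signal (log axis) of each TIMP and of Reck on the 15 arrays, drawn as for the metalloproteinases. Timp3 is highest on the TSA arrays and lowest on the SB202190 arrays, Reck is highest on the LY294002 arrays, and Timp4 stays below the dashed line at 50 on every array.

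Markers of other cells moved with TSA as well, in a comparison where 58.9% of all genes were called. The 10 macrophage markers summed to 643 to 726 on TSA arrays and 845 to 995 on DMSO arrays. Of the 6 of them that were tested, 5 were lower and Cd68, a lysosomal protein, was higher. C1qa had no group mean above 4.07. The 6 osteoclast markers summed to 236 to 287 with TSA, against 596 to 673 with DMSO. Ctsk, called lower, was the largest part of the DMSO sums (474, 452 and 525). Acp5 was not called and read 92.7, 87.7 and 87 with TSA, against 81.2, 110.5 and 109.5 with DMSO. Calcr, Ocstamp, Dcstamp and Oscar had no group mean above 37.7. The part of the macrophage and osteoclast markers in the Mmp9 values was not tested. Of 7 fibroblast and perichondrium markers, 1 was higher and 3 were lower with TSA, and of 6 endothelial markers only Kdr was tested, without a call (change -0.07, adjusted p 0.83).

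Under PI3K inhibition with LY294002, Reck was the member gene that changed. It had signals of 1430.4, 1483 and 1520.2 on LY294002 arrays, against 824, 863 and 724 on DMSO arrays. The LY294002 arrays were close to each other and all above DMSO, with a change of 0.88 ± 0.084 (SE, n = 3 each), 1.84-fold higher, and a limma adjusted p of 5.8e-05. Reck was thus 1 call in 9 member genes, or 11.1%, where 9.47% of all tested genes were called. This change kept its call under all alternatives run, with adjusted p-values between 3.98e-05 and 0.009. The median log2 change of the 9 member genes was -0.10 with LY294002, -0.05 with UO126 and -0.07 with SB202190, where the medians of all genes were 0.0083, 0.011 and 0.025.

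The other members were not called with LY294002. Mmp3 read 41, 25.2 and 27.7 on LY294002 arrays and 84.6, 54.2 and 47 on DMSO arrays, below DMSO without overlap (change -0.97, limma adjusted p 0.088). All 3 probe sets of Mmp14 were also below DMSO on every array, by -0.42, -0.43 and -0.28, with signals of 864, 1007 and 1045 with LY294002, against 1087, 1256 and 1578 with DMSO, for the representative one (adjusted p 0.231). With the replicate number as a block, both genes were called (adjusted p 0.00848 for Mmp3 and 0.0349 for Mmp14), which made 3 calls with Reck, where 16.4% of all genes were called in the blocked fit. Non-overlapping arrays occurred for 6 of the 19 member probe sets in this comparison, and for 26.2% of all probe sets tested. Mmp13 had signals of 3497, 3265 and 3784 with LY294002, and its change of 0.19 against DMSO had a 95% interval of -0.38 to 0.76. The intervals of Mmp2 (-0.12 to 0.25) and Timp2 (-0.23 to 0.24) were narrower.

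UO126 was followed by 1 call among the 9 member genes, a decrease of Mmp9, where 3.45% of all genes were called. This gene entered the test through DMSO and LY294002, the groups where it was highest, which limits the call and the count. Mmp9 read 27.6, 29 and 26.2 on UO126 arrays, against 57, 64.3 and 47.6 on DMSO arrays. The UO126 arrays were the lowest of all 15, and the change was -1.02 ± 0.20 (SE, n = 3 each), 2.03-fold lower (limma adjusted p 0.0092). These signals lie around and below 50, and the call ended with signals under 50 set to 50 (adjusted p 0.347), in a model of the 2 groups alone (0.092) and without DMSO replicate 2 (0.0501). The second probe set of Mmp9, not tested for its low signal, read 5.35, 5.34 and 5.06 with UO126, against 25.4, 13.3 and 23.9 with DMSO, also without overlap. Macrophage markers summed to 759 to 1001 with UO126 and 845 to 995 with DMSO, and limma called none of the 6 tested (0 at an unadjusted p under 0.05). The 6 osteoclast markers summed to 576 to 724 with UO126 and 596 to 673 with DMSO, and limma called neither of the 2 tested (1 at an unadjusted p under 0.05). That 1 was Acp5, tartrate-resistant acid phosphatase, which read 62.4, 79.7 and 42.2 on UO126 arrays, against 81.2, 110.5 and 109.5 on DMSO arrays, without overlap (change -0.74, adjusted p 0.129), while Ctsk gave 0.03 (adjusted p 0.976). The part of these markers in the Mmp9 decrease was not tested.

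Timp1, the soluble inhibitor that binds proMMP9, read 1751, 1895 and 2369.6 on UO126 arrays, against 2322, 3125 and 3869 on DMSO arrays. The groups overlapped at DMSO replicate 1, and the change of -0.61 was not called (limma adjusted p 0.082). It was called with the replicate block (adjusted p 0.00178), with quantile normalization (0.0174) or without DMSO replicate 1 (0.0177). Mmp3 was below DMSO on every UO126 array (34.9, 19.9 and 28.8), with a change of -1.14 that missed the threshold (limma adjusted p 0.097) and passed it with the block (0.00505). In the blocked fit 3 member genes were called, Mmp3, Mmp9 and Timp1, where 5.95% of all genes were. Reck read 978, 955 and 1018 with UO126, above each DMSO array, and its change of 0.29 was not called (adjusted p 0.082). Mmp13 had 2544, 2567 and 3133 with UO126, against 2701, 3069.6 and 3500.1 with DMSO, overlapping groups, with an interval of -0.74 to 0.40 for the difference.

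With SB202190, Reck was again higher, as 1 call in 9 member genes where 3.52% of all genes were called. Its signals were 1043, 1119.7 and 1118 on SB202190 arrays, against 824, 863 and 724 on DMSO arrays. The change was 0.45 ± 0.084 (SE, n = 3 each), 1.36-fold higher (limma adjusted p 0.0105). It kept its direction and lost its call without SB202190 replicate 2 (adjusted p 0.0524), with arrays centred on their medians (0.0574) and in a model of the 2 groups alone (0.0724).

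Timp3 was lower with SB202190 on all its probe sets. The representative probe set read 1464, 1513 and 1798 on SB202190 arrays, against 1847, 2513 and 2941 on DMSO arrays. These groups did not overlap, and the change of -0.59 ± 0.15 lay just outside the threshold (limma adjusted p 0.0507). The other 3 probe sets changed by -0.94 (1419088_at, adjusted p 0.00504), -0.84 (1419089_at, 0.0193) and -1.02 (1449334_at, 0.0301) and were called. The mean of the 4 probe sets gave -0.85 (adjusted p 0.0108). The call of 1419089_at ended without DMSO replicate 2 or 3 or SB202190 replicate 1 or 2 (adjusted p 0.0583 to 0.0899), that of 1449334_at without DMSO replicate 3 or SB202190 replicate 1 or 2 (0.108 to 0.135), and 1419088_at kept its call without each array. The representative probe set was called without DMSO replicate 1 (0.0086). In all, 4 of 19 member probe sets (21.1%) were called with SB202190, against 2.84% of all probe sets tested, 3 of the 4 being probe sets of this 1 gene. Hypertrophic markers summed to 967 to 1670 on SB202190 arrays and 2370 to 3146 on DMSO arrays, with Ibsp called lower, and the part of this in the Timp3 values was not tested.

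DMSO replicate 1 had the lowest signal of its group for the representative probe sets of Mmp2, Mmp13, Mmp14, Timp1, Timp2 and Timp3. Timp1 read 1845, 1927 and 2467 with SB202190, and its change of -0.56 (adjusted p 0.106) was called without that array (0.0278), as was its change with TSA (0.0143). With quantile normalization the change of Timp1 with SB202190 was called too (adjusted p 0.0456). Mmp2, Mmp13, Mmp14 and Timp2 gave changes between -0.07 and 0.13 on their representative probe sets with SB202190, none of them called.

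**Figure D3:**
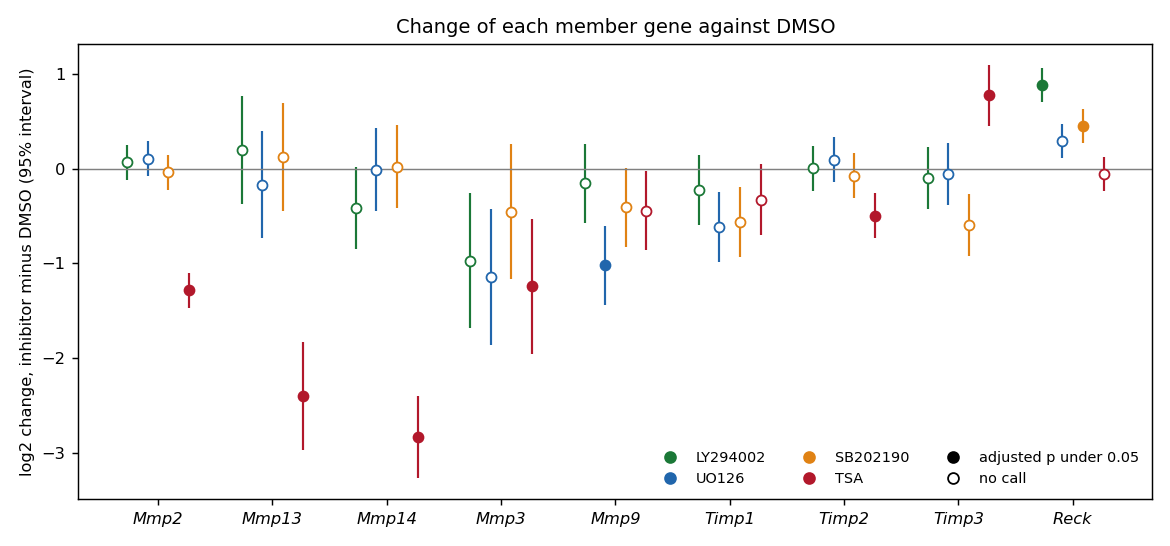
Change of each tested member gene against DMSO (log2, inhibitor minus DMSO, with 95% intervals), with filled points where the limma adjusted p was under 0.05 and open points elsewhere. TSA has 6 filled points, 5 below and 1 above 0, whereas LY294002, UO126 and SB202190 have 1 each (Reck, Mmp9 and Reck).

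The inhibitors were also compared with each other, which uses no DMSO array in the difference. Reck was higher with LY294002 than with UO126 (0.59 ± 0.084, limma adjusted p 0.000842) and higher with LY294002 than with SB202190 (0.43 ± 0.084, adjusted p 0.00595). Reck thus stood at 1478 ± 45.1 with LY294002, 1094 ± 44.1 with SB202190, 984 ± 31.8 with UO126, 774 ± 70 with TSA and 804 ± 71.5 with DMSO (mean ± SD of the signal, n = 3 each). The neighbours SB202190 and UO126 were not called different (adjusted p 0.329), nor were UO126 and DMSO or TSA and DMSO. Against TSA, Reck was lower in TSA-treated cells than with LY294002 (-0.94), UO126 (-0.35) or SB202190 (-0.50), all called.

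Mmp9 was higher with LY294002 than with UO126 by 0.86 ± 0.20 (limma adjusted p 0.0167), and this call ended without LY294002 replicate 1 or UO126 replicate 3 (adjusted p 0.0747 and 0.0565). LY294002 was also among the groups that brought Mmp9 into the test, which limits this difference and the counts that include it. Mmp9 was also higher with TSA than with UO126, by 0.57 (adjusted p 0.0213), and that call ended without UO126 replicate 3 or TSA replicate 1 or 2 (0.0575 to 0.0631). Of the osteoclast markers, Acp5 was called higher (0.58, adjusted p 0.0455) and Ctsk lower (-2.65, adjusted p 8.29e-08) with TSA than with UO126, and the call of Acp5 ended without UO126 replicate 1 or 3 or any TSA array (0.0688 to 0.233). With signals under 50 set to 50, the difference of LY294002 and UO126 was 0.07 (adjusted p 0.723). With Reck this made 2 member genes called between LY294002 and UO126, or 22.2%, where 8.18% of all genes were called. In the blocked fit 4 were called (Mmp9, Mmp14, Timp1 and Reck), where 13.8% of all genes were.

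Between UO126 and SB202190, which share the pathway name in the design text, the member gene called was Timp3, where 9.77% of all genes were called. Timp3 read 2101, 2168 and 2675 with UO126 and 1464, 1513 and 1798 with SB202190, without overlap. The difference of 0.54 ± 0.15 (limma adjusted p 0.0414) ended as a call without UO126 replicate 2 or 3 or SB202190 replicate 1 or 2 (adjusted p 0.0703 to 0.185). It also ended without the variance trend (0.0746). Of the other Timp3 probe sets, 1419088_at (0.55, adjusted p 0.044) and 1419089_at (0.59, 0.0494) were called. The arrays of 1449334_at overlapped, and it was not called (0.60, 0.147). Of the 10 chondrocyte markers 5, among them Acan and Matn3, were also higher with UO126 than with SB202190. Hypertrophic markers summed to 3198 to 4993 with UO126 and 966.5 to 1670 with SB202190, and 3 of the 4 were called higher (Ihh, Ibsp and Alpl, median change 1.66 over the 4). The part of either list in the Timp3 difference was not tested. For Mmp9 the difference of UO126 and SB202190 was -0.61 (95% interval -1.03 to -0.19) and missed the threshold (adjusted p 0.0705), and for Acp5 it was -1.13 (adjusted p 0.00653). Between LY294002 and SB202190, Reck was the member gene called, where 7.38% of all genes were. Timp3 was higher with LY294002 on 2 of its probe sets (0.70 and 0.66, adjusted p 0.0275 and 0.0206), calls that ended without LY294002 replicate 2 or 3 or SB202190 replicate 1 or 2, and its representative probe set gave 0.49 (adjusted p 0.0748).

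TSA differed from each kinase inhibitor as it did from DMSO in most members. Of 9 member genes, 6 were called against LY294002 (1 higher and 5 lower), 7 against UO126 (2 higher and 5 lower) and 6 against SB202190 (1 higher and 5 lower). The 5 lower were Mmp2, Mmp13, Mmp14, Timp2 and Reck each time, with Reck in the place that Mmp3 had against DMSO. Of all genes, 58.4% were called against LY294002 (29.4% higher, 29% lower), 59.6% against UO126 (30.6% higher, 29% lower) and 56.9% against SB202190 (28.2% higher, 28.7% lower). Mmp14 had log2 changes of -2.42 in TSA minus LY294002, -2.82 in TSA minus UO126 and -2.85 in TSA minus SB202190. For Mmp13, with the kinase inhibitors in the same order, they were -2.59, -2.23 and -2.53, and for Mmp2 they were -1.35, -1.39 and -1.25. On its representative probe set Timp3 was higher with TSA than with SB202190 by 1.36 ± 0.15 (2.58-fold, limma adjusted p 2.44e-06), and its other 3 probe sets gave wider gaps of 1.74, 1.81 and 2.01 (3.33- to 4.04-fold). Mmp3 was not called between TSA and LY294002 (-0.27, limma adjusted p 0.52) or between TSA and UO126 (-0.10, adjusted p 0.819), where the arrays overlapped. Between TSA and SB202190 it was not called either (-0.79, adjusted p 0.0603), and was with the replicate block (0.00474) or without TSA replicate 1 (0.0315).

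**Figure D4:**
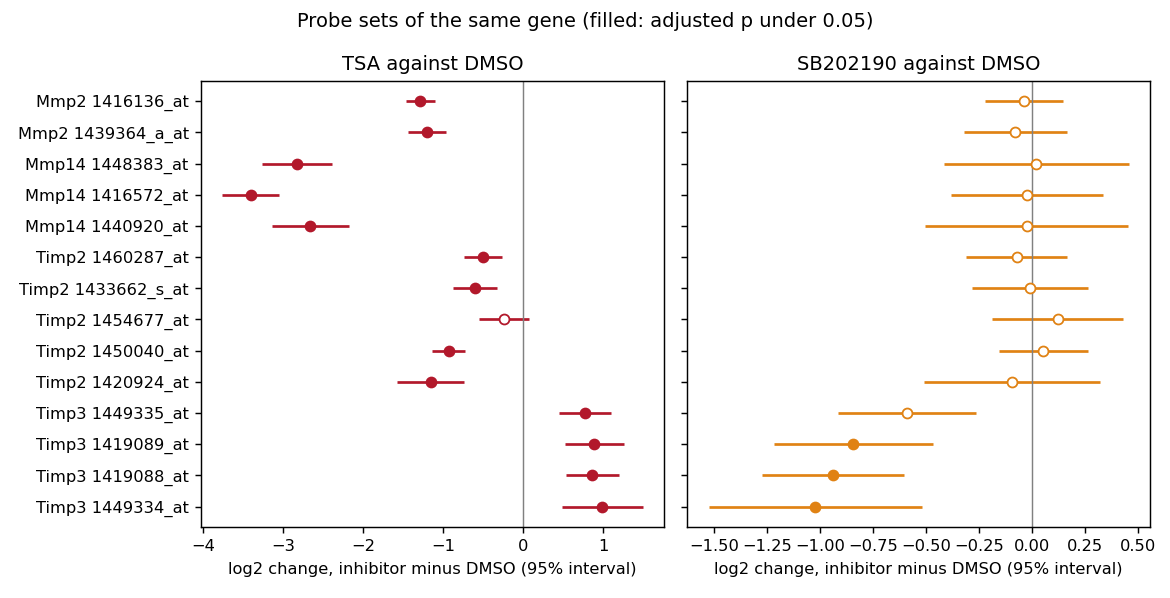
Log2 change against DMSO with 95% intervals for every tested probe set of Mmp2, Mmp14, Timp2 and Timp3, with TSA in the left panel and SB202190 in the right panel (filled where the adjusted p was under 0.05). The Timp3 probe sets lie above 0 with TSA and below 0 with SB202190, and the Timp2 probe sets spread from -0.24 to -1.16 with TSA.

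Timp4, whose protein is best known from heart and fat, was low throughout. Its probe set 1450974_at had group means of 26.6 with LY294002, 21 with UO126, 31.5 with SB202190, 38.9 with TSA and 36.1 with DMSO. The second probe set, 1423405_at, ranged from 15.6 to 34.7 in its group means, and neither entered the test.

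The order of the 5 groups was set mainly by TSA for Mmp2, Mmp13, Mmp14, Timp2 and Timp3. For Mmp2, Mmp13, Mmp14 and Timp2, no neighbouring pair among LY294002, UO126, SB202190 and DMSO was called, and the lowest of them was called above TSA. For Timp3, TSA was called above DMSO at the top of the order and no other neighbours were called. Mmp9 had UO126 at the bottom, called below TSA, and for Mmp3 and Timp1 no neighbouring groups were called. For Reck the neighbours called were LY294002 above SB202190 (limma adjusted p 0.00595), and DMSO and TSA at the bottom were not called different (adjusted p 0.603). Over the 12 arrays without TSA, the 3 members with the widest range of group means were Mmp3, Mmp9 and Reck. The genes whose log2 signal followed them most closely, among 8706 candidates, were Wdr46 (Pearson r 0.953), Atad3a and Osr1 for Mmp3, Sbsn (0.956), Socs3 and Il6st for Mmp9, and Cyhr1 (0.959), Sun1 and Pcbd2 for Reck. These correlations describe arrays that share groups and hybridizations, and the best of so many genes is high by selection.

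Other metalloproteinases and their partners were taken from lists of related genes. In the comparisons of LY294002, UO126 and SB202190 with DMSO, 9.47%, 3.45% and 3.52% of all tested genes were called, in that order. Of 18 further metalloproteinases, 13 were on the array and 5 were tested. With TSA 3 of the 5 were lower and 1 higher, where 28.4% of all genes were lower and 30.6% higher. The median log2 change of the 5 was -1.01, and that of all genes was 0.0013. Mmp23 averaged 40.3 ± 12.4 with TSA and 224.9 ± 52.4 with DMSO (log2 change -2.50, limma adjusted p 8.03e-08), and Mmp16, which can activate proMMP2, averaged 116 ± 11.4 with TSA and 233 ± 11.4 with DMSO (-1.02). Mmp7, or matrilysin, was near the detection range at 13.1 with TSA and 45 with DMSO (-1.80), and its call ended with signals under 50 set to 50 (adjusted p 1). Mmp17, a GPI-anchored metalloproteinase, was higher at 98.2 ± 10.3 with TSA, against 28 ± 5.63 with DMSO (1.82, limma adjusted p 5.95e-05). Its DMSO mean was under the 50 of the filter, so the change is measured from a signal near the detection range. TSA, where it was highest, was enough to bring it into the test. With LY294002, Mmp11 was called higher (0.78, adjusted p 0.0304), and this call ended without DMSO replicate 2 or 3 or LY294002 replicate 1 or 2 (0.0894 to 0.113). Limma called none of the 5 with UO126 or SB202190, where 0 and 1 had an unadjusted p under 0.05. The highest group mean among the 8 not tested was 45.2, for Mmp24.

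Proteases that activate metalloproteinases changed in both directions. Of 6 tested genes of the plasminogen system and zymogen activation, 1 was higher and 4 were lower with TSA (median change -1.03). Of all genes, 30.6% were higher and 28.4% lower in this comparison. Plat, tissue plasminogen activator, averaged 1119 ± 114 on TSA arrays, against 246.6 ± 17.4 on DMSO arrays (2.18, limma adjusted p 5.64e-09). Furin, the convertase that cleaves proMMP14, averaged 223 ± 6.12 with TSA and 437 ± 48.5 with DMSO (-0.97, adjusted p 1.61e-06). Pcsk5 (-1.17) and Pcsk6 (-1.09), 2 further convertases, were lower as well. With UO126, Plat was lower at 118 ± 6.13, against 246.6 ± 17.4 with DMSO (-1.06, adjusted p 0.000538), and Pcsk6 was higher at 476 ± 92.9, against 201 ± 23.1 with DMSO (1.23, adjusted p 0.00163). Pcsk6 was also higher with LY294002 (0.84, adjusted p 0.0138), a call that ended without DMSO replicate 2 or LY294002 replicate 2 or 3 (0.0509 to 0.0554). Limma called none of the 6 with SB202190 (3 at an unadjusted p under 0.05).

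Of 7 tested genes from a list of other protease inhibitors and related matrix proteins, 2 were higher and 4 lower with TSA. Of all genes, 30.6% were higher and 28.4% lower with TSA. The median change of the 7 was -0.75. Pcolce, an enhancer of procollagen processing, averaged 1458 ± 60.9 with TSA, against 4317 ± 684 with DMSO (-1.55, limma adjusted p 9.14e-09). The broad protease inhibitor A2m (-1.33) and the collagen chaperone Serpinh1 (-0.75) were also lower, and Cst3, an inhibitor of cysteine cathepsins, was higher (0.63). With LY294002 A2m was called higher (0.55, adjusted p 0.0432), a call that ended without any 1 of the 6 arrays (0.0657 to 0.129). With UO126 Tfpi2, a serine protease inhibitor of the matrix, was called lower (-0.80, adjusted p 0.0203), a call that ended without DMSO replicate 1 or 2 or UO126 replicate 1 or 2 (0.0532 to 0.0864). With SB202190 limma called none (2 at an unadjusted p under 0.05).

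Among 9 tested cell surface partners, 3 were higher and 2 lower with TSA (median change 0.03), where 58.9% of all genes were called. With LY294002 1 was higher and 1 lower, where 9.47% of all genes were called. With UO126 2 were lower and with SB202190 1 was lower, where 3.45% and 3.52% of all genes were called. Ddr2, a collagen receptor, averaged 239 ± 21.6 with TSA, against 679 ± 29.9 with DMSO (-1.51, limma adjusted p 6.42e-09), and Bsg, which is known as an inducer of metalloproteinases, averaged 3737 ± 210.0 with TSA and 2083 ± 259 with DMSO (0.85). Lrp1, the receptor that clears MMP and TIMP proteins, averaged 849 ± 100.3 with LY294002, against 497 ± 113 with DMSO (0.79, adjusted p 0.00476). With TSA Lrp1 was lower (-0.54). Cd44, a docking receptor of MMP9, was lower with UO126 (-0.53, adjusted p 0.00231) and with LY294002 (-0.35, adjusted p 0.0203), and the second of these calls ended without DMSO replicate 2 or 3 or LY294002 replicate 1 or 2 (0.051 to 0.0839). Cav1, a caveolar protein, was the partner called with SB202190 (-0.51, adjusted p 0.0149), a call that ended without DMSO replicate 2 or SB202190 replicate 3 (0.0589 to 0.0656).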

How the data were processed

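Total RNA of 15 cultures was hybridized to 1 Affymetrix array each, all of the same mouse genome design. The deposited intensity values are MAS5 signals from the authors, 1 table for all arrays on a linear scale, with the 2% trimmed mean of each array at 150, and no version of the software is given in the sources used here. Median signals were 29.8 to 39.96 per array and 40.9% to 45% of probe sets reached 50. The number of 3 arrays per group limits the precision, and no depth applies to arrays.

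The log2 of each signal was taken with a floor of 1. Using limma 3.58.1 (R 4.3.3; lmFit, eBayes with a trend), group means of the 15 arrays were fitted together for 10 comparisons, with Benjamini-Hochberg adjustment over the 21765 probe sets tested. A total of 64 control probe sets was left out. Genes were named from the platform annotation: 34958 probe sets had 1 symbol, 932 had several and 9211 had none, and 99.4% of the single symbols matched RefSeq. In simulated data for LY294002 and DMSO over 21765 probe sets, 70% of 100 changes of 1 on the log2 scale and 98% of 100 changes of 2 were recovered. The simulation drew normal values around the DMSO means in every group and changed only these probe sets, in LY294002 alone. It held no effect shared by replicate numbers, so the shares recovered apply to that setting and not to the measured arrays. Groups come from the sample titles.

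The members and lists were chosen with earlier results of these data known. All 10 members are named, and of each related list up to 4 called genes per comparison with the smallest p-values. Genes like a member had a mean signal of at least 100 and the highest Pearson r over the 12 arrays without TSA.

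Replicate numbers are given in the titles without a statement of what they share, and the study's methods describe the DMSO and LY294002 cultures as 3 independent experiments. Deviations from the group means of same-numbered arrays correlated at 0.161 to 0.425 for LY294002 and DMSO, with all numbers above 0.1, and likewise for UO126 with DMSO, LY294002 with UO126 and TSA with SB202190, so a replicate block is given beside those comparisons where it changed a call. No 2 arrays held identical values. Alternatives were quantile normalization, median centring, no filter, a mean signal of 100, an added 16, a floor of 50, no variance trend, 2 groups alone, the block, each array left out and the mean of probe sets.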

Additional observations from a re-analysis of the deposited data

How the results depend on the processing

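The 4 comparisons that include TSA kept counts of called member genes within 1.5 times under every alternative run, and so did LY294002 against DMSO under all but the replicate block. With the block, 3 member genes were called with LY294002, 3 with UO126 and 3 with SB202190 against DMSO, 3 between UO126 and SB202190, 4 between LY294002 and UO126 and 4 between LY294002 and SB202190, where 5.95% to 16.4% of all genes were called, and same-numbered arrays of the comparisons with SB202190 named here did not all correlate above 0.1. In models of the 2 groups alone, UO126 and SB202190 against DMSO had 0 calls, LY294002 against UO126 had 1 and LY294002 against SB202190 had 2. With a mean signal of 100 as filter, which removes Mmp9 and Mmp3, the counts were 0 for UO126 and 2 for SB202190 against DMSO and 1 for LY294002 against UO126. With signals under 50 set to 50, UO126 against DMSO had 0 calls and LY294002 against UO126 had 1. Quantile normalization gave 2 calls with UO126, 3 with SB202190 and 2 between LY294002 and SB202190. Centring on array medians moved the median change of all probe sets from -0.0040 to 0.123 for LY294002 against DMSO. It gave 0 calls with SB202190 and 0 between UO126 and SB202190, and no filter gave 0 calls in the second of these. An added 16 gave 2 calls with SB202190, and the mean of probe sets gave 2 with SB202190 and 2 between LY294002 and SB202190. Without each array in turn, the counts were 0 to 2 for UO126, 0 to 3 for SB202190, 0 to 1 between UO126 and SB202190 and 1 to 2 between LY294002 and UO126.

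Among the values run, sign changes were found for members that were not called. The mean of probe sets gave -0.0033 for Mmp2 and -0.019 for Timp2 with LY294002, -0.034 for Timp2 with UO126 and -0.010 for Mmp14 with SB202190. Quantile normalization gave -0.058 for Timp2 with LY294002, and centring gave 0.025 for Timp3 with LY294002, 0.0099 for Mmp14 with UO126 and 0.00029 for Mmp2 with SB202190. Leaving out 1 array gave ranges of -0.13 to 0.11 for Timp2 and -0.29 to 0.047 for Timp3 with LY294002, -0.14 to 0.20 for Mmp14, -0.040 to 0.20 for Timp2 and -0.24 to 0.095 for Timp3 with UO126, -0.089 to 0.022 for Mmp2, -0.13 to 0.16 for Mmp14 and -0.21 to 0.033 for Timp2 with SB202190, and -0.13 to 0.020 for Reck with TSA. Of the single-gene values counted, 905 kept their direction and side of the threshold, 29 gained a call, 22 lost one and 22 changed sign. Results between inhibitors entered these totals only where the main adjusted p was near or under the threshold. The causes were not tested. Signals of Mmp3, Mmp9 and Timp4 lie in the range where background limits the values. Per the study's methods, the DMSO and LY294002 cultures came from 3 separate experiments, without a statement that an array's number marks the experiment. For the other treatments this is not given in the sources used here, and p-values then measure only the spread between these arrays.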
